A study of Homo sapiens with 8 samples.

Results

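The tiling pool is a set of guide RNAs laid along the coding sequences of SETD1A and related chromatin genes, introduced as a mixture into iCas9 KPL-1 cells. KPL-1 is a line of human breast cancer cells, and iCas9 is a Cas9 nuclease switched on by doxycycline. Guide reads were counted in 1 library at day 0 of doxycycline, whose cells the labels call WT, and in 1 library at day 14, labelled as a knockout of functional domains. All 5995 listed guides were considered, and the 5991 with at least 30 reads at day 0 were kept. Both libraries come from the same pool (sgKMT2pool) in the same line, so both carry the same Cas9 transgene, and nothing in the labels says whether the line is 1 clone. With 1 library per day no difference was set against replicate error. Every value describes these 2 libraries, and every interval over guides or reads covers the spread between guides or counting error only. The remaining samples of the series are day 7 RNA libraries with an empty guide vector (sgEmpty) or a guide against SETD1A.

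SETD1A and SETD1B are the catalytic subunits of SET1-type complexes, which methylate lysine 4 of histone H3. KMT2C and KMT2D are the large catalytic subunits of related complexes that act mainly at enhancers, and BOD1L1 is a partner of the SETD1A complex. In a pooled screen, Cas9 cuts where each guide directs it, and a guide becomes rarer over time when the cells that carry it divide less or die. Tiling spreads many guides along a gene, so that small in-frame repairs, which leave most of the protein intact, are sampled at many places. The series title poses the question of SETD1A activity that does not depend on its enzymatic function.

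The 5991 guides carried 13 target names. There were 628 guides for SETD1A (named KMT2F, its synonym), 744 for SETD1B (named KMT2G), 2435 for KMT2D, 1331 for KMT2C and 618 for BOD1L1. A further 200 had the prefix HGLibA, known from a published human library, and were taken as non-targeting controls from that background, which the table does not state. Among the other names, 6 with 5 guides each are described here: the general essential genes PCNA, POLR2A, POLR2L, RPA3 and SF3B3, and the AAVS1 site in PPP1R12C, which is widely used as a harmless cut site. The 4 guides below the limit of 30 reads had 0, 10, 18 and 20 reads at day 0, and those just above it had 34, 37, 43 and 45. No guide sequences are printed because the table analysed here holds guide names and counts.

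A guide had a median of 1531 reads in the day 0 library (10145466 reads in all) and 1289 in the day 14 library (10255022 reads). The median counting error of a guide's log2 change was 0.056. The day 7 sgEmpty RNA libraries of the same line carried the markers of luminal breast epithelium: the 8 listed markers summed to 14370 to 15441 TPM over 3 libraries. In these libraries 3 basal markers summed to 0.282 to 0.592 TPM, with KRT5 and KRT14 listed at 0, and 3 immune markers summed to 1.36 to 1.79 TPM. The 2 fibroblast markers COL1A1 and PDGFRB summed to 2.58 to 3.10 TPM.

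Guides against all 5 tiled genes had a lower median than the HGLibA guides at day 14, and KMT2D and SETD1A guides were lowest. Reads were scaled to a total of 1000000 per library (CPM), and the change of a guide is log2 of its CPM plus 1 at day 14 over that at day 0, minus the median of the HGLibA guides. That median was 0.74 before subtraction, so the median HGLibA guide had a 1.67-fold higher CPM at day 14 than at day 0. The median was -1.43 for KMT2D (95% interval over guides -1.49 to -1.38), which is 2.70-fold lower than HGLibA. It was -1.23 for SETD1A (-1.33 to -1.14), or 2.34-fold lower. KMT2C followed at -0.84 (-0.88 to -0.79), BOD1L1 at -0.64 (-0.72 to -0.56) and SETD1B at -0.25 (-0.28 to -0.21). None of the intervals of these 5 medians overlapped. Another reference shifts every guide by the same amount, so signs depend on it: centred on all guides, KMT2D and SETD1A stayed negative (-0.52 and -0.31), while KMT2C, BOD1L1 and SETD1B turned to 0.072, 0.28 and 0.67. Before centring, the median over all guides was -0.18 log2, and 2613 of 5991 guides had a higher CPM at day 14 than at day 0.

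Of the guides that cut AAVS1, 4 of 5 were themselves below the HGLibA median. AAVS1 guides ran from -1.46 to 0.18 with a median of -1.01, a range that holds the medians of all 5 tiled genes. AAVS1_1 went from 2061 to 1263 reads (-1.46) and AAVS1_3 from 3378 to 6461 reads (0.18). Set against the AAVS1 median in place of that of HGLibA, the medians were -0.42 for KMT2D and -0.21 for SETD1A, while KMT2C, BOD1L1 and SETD1B turned to 0.17, 0.38 and 0.77. This reference was chosen after seeing the data and rests on 5 guides at 1 place in the genome.

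The distributions differed in where guides left the range of the controls. Of all guides, 46.7% were at or below -1 log2 (2-fold lower) and 16.6% at or below -2 log2. At or below -1 log2 stood 1599 of 2435 KMT2D guides (65.7%, exact Clopper-Pearson 95% interval 63.7% to 67.6%) and 375 of 628 SETD1A guides (59.7%, 55.8% to 63.6%). The counts were 539 of 1331 for KMT2C (40.5%), 198 of 618 for BOD1L1 (32.0%) and 57 of 744 for SETD1B (7.66%). Among the HGLibA guides 4 of 200 (2.0%) passed, and among the AAVS1 guides 3 of 5. Of these 3, AAVS1_5 lay near the threshold at -1.01 (95% counting interval -1.15 to -0.88). The deeper threshold of -2 log2 held 704 KMT2D guides (28.9%), 121 SETD1A guides (19.3%), 112 KMT2C guides (8.41%), 25 BOD1L1 guides (4.05%) and 10 SETD1B guides (1.34%), against 0 of 200 HGLibA guides (exact Clopper-Pearson upper limit 1.83%). These shares depend on the reference: at or below -1 log2 were 1101 guides of the pool when centred on all guides, 1353 without centring and 977 when centred on AAVS1, against 2800 here, and 21.5%, 27.4% and 18.6% of SETD1A guides.

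Cutting the same values at the lower edge of the controls gave the same order among the tiled genes. The 5th percentile of HGLibA guides was -0.74, and 56.4% of all guides lay below it. Below this edge were 73.1% of KMT2D guides, 67.2% of SETD1A guides, 55.1% of KMT2C guides, 45.3% of BOD1L1 guides and 16.7% of SETD1B guides. Of the 5 AAVS1 guides, 4 were below it too. The lowest single HGLibA guide stood at -1.88, and 19.1% of all guides were lower still, with 32.8% of KMT2D, 23.4% of SETD1A, 10.3% of KMT2C, 5.18% of BOD1L1 and 1.48% of SETD1B guides. That limit rests on 1 guide, HGLibA_64553. Below the next lowest, HGLibA_64539 at -1.06, lay 44.3% of all guides, with 63.5% of KMT2D, 57.3% of SETD1A, 37.3% of KMT2C, 29.0% of BOD1L1 and 6.05% of SETD1B guides. Of the 5 AAVS1 guides, 2 were below HGLibA_64539 and 0 below HGLibA_64553.

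In shape, KMT2D and SETD1A were displaced and wide, and SETD1B was narrow with a thin lower tail. The SETD1A guides ran from -2.74 at the 5th percentile through -1.82, -1.23 and -0.47 at the quartiles to 0.19 at the 95th percentile. Against the HGLibA guides this was a displacement of -2.0 at the 5th percentile, -1.23 at the median and -0.58 at the 95th percentile, so the top of the distribution was lower too, but less than the bottom. KMT2D was displaced by -2.35, -1.43 and -0.61 at the same percentiles. For SETD1B the displacements were -0.39, -0.25 and -0.34, a nearly even shift. KMT2C was displaced by -1.49, -0.84 and -0.38, and BOD1L1 by -1.16, -0.64 and -0.32.

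Among the tiled genes and HGLibA, the targets with lower medians were also wider. The quartile range, the distance from the 25th to the 75th percentile, was 1.45 log2 for KMT2D, 1.35 for SETD1A, 1.04 for KMT2C, 0.90 for BOD1L1, 0.58 for SETD1B and 0.49 for HGLibA. The SD of KMT2D guides was 2.28 times that of HGLibA guides, and the SD of SETD1A guides 2.0 times. HGLibA guides themselves varied with an SD of 0.46 log2, which is 9.73 times their median counting error of 0.047. The spread between control guides was thus far larger than the counting error of a guide. The 13 target names together held 21.4% of the variance of the log2 change over the pool, and the rest lay between guides of the same name.

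Among the tiled genes and HGLibA, SETD1B had the most uneven tails by the following measures. The distance from the median down to the 5th percentile, divided by the distance up to the 95th percentile, was 1.3 for SETD1B, 1.16 for BOD1L1, 1.13 for KMT2C, 1.07 for SETD1A, 1.04 for KMT2D and 0.96 for HGLibA. The moment skewness, which weighs the farthest guides most, was -1.70 for SETD1B and -0.99 for KMT2C, against -0.32 for SETD1A, -0.33 for KMT2D, -0.42 for BOD1L1 and -0.076 for HGLibA. KMT2D and SETD1A, the most displaced, were the closest to symmetric of the tiled genes by both measures. Quartile skewness, which compares the distances from the median to the 25th and 75th percentiles, gave another order. It was 0.12 for SETD1A, 0.036 for KMT2C, 0.035 for KMT2D, -0.072 for SETD1B, -0.092 for BOD1L1 and -0.11 for HGLibA.

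In bins of 0.5 log2, the most populated bin of HGLibA guides was 0 to 0.5 (79 of 200 guides). SETD1B peaked from -0.5 to 0 with 328 guides, or 44.1% of its guides. BOD1L1 peaked in that bin as well, with 180 guides, but had another 155 from -1 to -0.5 and 132 from -1.5 to -1. KMT2C peaked from -1 to -0.5 (348 guides) and KMT2D from -2 to -1.5 (459 guides), both falling off on each side. SETD1A peaked from -1.5 to -1 with 141 guides, dipped to 89 from -1 to -0.5 and held 105 from -0.5 to 0. Whether this dip exceeds chance was not tested.

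The rank of single guides overlapped widely between genes. When each SETD1A guide was set against each HGLibA guide, the SETD1A guide was lower in 87.8% of pairs. In the same way KMT2D guides were lower in 89.3% of pairs, KMT2C guides in 82.7%, BOD1L1 guides in 80.0% and SETD1B guides in 66.6%. The 5 AAVS1 guides were themselves lower than HGLibA guides in 84.7% of pairs. A KMT2D guide was lower than a SETD1A guide in 56.3% of pairs, so these genes largely overlapped although their medians differed by 0.21 log2. A SETD1A guide was lower than a SETD1B guide in 80.1% of pairs and lower than an AAVS1 guide in 61.4%. Against AAVS1 guides, KMT2D guides were lower in 67.4% of pairs, KMT2C guides in 46.8%, BOD1L1 guides in 39.1% and SETD1B guides in 23.2%. Guides of 1 gene share that gene and are not replicates of a condition.

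The essential gene guides marked the depth that depletion reached in this pool. Over 25 guides the median was -3.63 log2, and 24 were at or below -1 log2 and 20 at or below -2 log2. With guides at 0 reads set to a floor of 3 reads per library and no pseudocount, the median was -3.81. A SETD1A guide was lower than an essential gene guide in 10.7% of pairs and a KMT2D guide in 13.7%. Medians of 5 guides were -4.39 for POLR2L, a small subunit shared by the RNA polymerases, -4.03 for PCNA, the sliding clamp of replication, and -3.58 for the splicing factor SF3B3. They were -3.01 for POLR2A, the largest subunit of RNA polymerase II, and -2.90 for RPA3, a subunit of the single-strand binding protein of replication.

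The 5 guides of an essential gene did not move together. POLR2A_3145 went from 1503 reads to 0, which is at least 847-fold lower relative to HGLibA, while POLR2A_1569 went from 1908 to 1400 reads, a change of -1.20. POLR2L_26 went from 1035 reads to 0 (at least 583-fold lower), and POLR2L_38 from 202 to 0 (at least 114-fold lower). The 3 other POLR2L guides lay between -4.39 and -3.44. RPA3_196 rose in reads from 805 to 1030 and stood at -0.41, above the 5th percentile of the HGLibA guides, whereas RPA3_46 went from 621 to 66 reads (-3.81). Among PCNA guides 4 were between -4.59 and -4.03 and PCNA_374 was at -1.75. SF3B3 guides ran from -3.84 for SF3B3_1266 to -1.49 for SF3B3_589.

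The lowest SETD1A guides had low numbers in their names. The table does not define these numbers, which run from 4 to 5124 for SETD1A. They are used here only to order guides, to give the gaps between them and to cut each gene into stretches. KMT2F_313 went from 1193 to 85 reads, a change of -4.42 (95% counting interval -4.90 to -4.25, without pseudocount). KMT2F_125 went from 1202 to 114 reads (-4.04) and KMT2F_191 from 2083 to 208 reads (-4.02). These changes were close to the median of PCNA guides. At the other end, KMT2F_151 went from 185 to 623 reads (0.94) and KMT2F_2206 from 801 to 2380 reads (0.80). The guide with the highest SETD1A value is thus numbered between those with the lowest.

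The lowest guides named here for the other tiled genes also lay below -2.84, the 75th percentile of the essential gene guides. Of the SETD1B guides, KMT2G_1831 went from 1129 to 112 reads (-3.98), KMT2G_4596 from 380 to 36 (-3.83) and KMT2G_5179 from 127 to 16 (-3.14), although the gene's median was -0.25. The lowest BOD1L1 guides, BOD1L1_4422, BOD1L1_4924 and BOD1L1_8246, stood at -3.33, -3.26 and -3.20. The lowest KMT2D guides with at least 100 day 0 reads had 0 reads at day 14: KMT2D_11024 from 344 reads (at least 194-fold lower), KMT2D_5271 from 322 (at least 181-fold) and KMT2D_10386 from 299 (at least 168-fold). For KMT2C these were KMT2C_2655 from 594 reads to 0 (at least 335-fold lower) and KMT2C_7407 from 277 to 0 (at least 156-fold). KMT2C_1507 went from 479 reads to 1, a ratio whose 95% counting interval runs from 145-fold to 32041-fold lower.

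Relative to HGLibA, 21 guides stood at or above 1 log2, 0.351% of the pool, and 4 of these were among the 200 HGLibA guides (2.0%). This count also depends on the reference and was 378 without centring, 644 centred on all guides and 869 centred on AAVS1; at 500 day 0 reads it was 9. The tiled genes had 6 for KMT2C, 6 for BOD1L1, 3 for KMT2D, 2 for SETD1B and 0 of 628 for SETD1A (exact Clopper-Pearson upper limit 0.586%). Above the 95th percentile of HGLibA guides, 0.77, were 0.935% of all guides, and the tiled genes ran from 0.318% for SETD1A to 1.46% for BOD1L1, beside 5% of HGLibA guides by construction. The highest values with at least 100 day 0 reads were 1.80 for KMT2C_8174 (207 to 1265 reads), 1.69 for HGLibA_64582 (1063 to 5840 reads) and 1.36 for KMT2C_14250 (521 to 2296 reads). KMT2G_1245 stood at 1.27, BOD1L1_2820 at 1.26, KMT2D_7632 at 1.21 and HGLibA_64425 at 1.16. The lowest HGLibA guides were HGLibA_64553 at -1.88 (748 to 338 reads) and HGLibA_64539 at -1.06.

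The pool became less even. At day 0 the 90th percentile of reads per guide was 4.79 times the 10th, and at day 14 it was 10.96 times. The Gini coefficient, which is 0 when all guides have equal reads, went from 0.306 to 0.437. The effective number of guides, the number of equally frequent guides with the same entropy, went from 5153 (86.0% of those listed) to 4375 (73.0%). The most abundant 10% of guides held 21.5% of reads at day 0 and 29.4% at day 14.

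Among the tiled genes and HGLibA, evenness fell most for KMT2D and SETD1A guides. The Gini coefficient went from 0.276 to 0.447 for KMT2D guides, from 0.285 to 0.430 for SETD1A, from 0.321 to 0.401 for KMT2C and from 0.331 to 0.382 for BOD1L1. For SETD1B it went from 0.257 to 0.311 and for HGLibA from 0.269 to 0.304. At day 0 KMT2C and BOD1L1 guides were already less even and rarer than the others, with medians of 1150.5 and 1097.5 reads against 1778 for SETD1A, 2078.5 for SETD1B and 1707.5 for KMT2D. Day 0 reads and the change were nearly unrelated across guides (Spearman's rho 0.010 over 5991 guides, which share the 2 libraries).

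The share of reads fell for KMT2D, SETD1A and the essential gene guides (0.362% to 0.0887%). It rose for the other tiled genes and HGLibA. KMT2D guides were 40.6% of the listed guides and held 43.8% of reads at day 0 and 34.5% at day 14. SETD1A guides went from 12.4% to 10.9% of reads. SETD1B guides went from 15.6% to 22.7%, BOD1L1 from 7.74% to 8.85%, KMT2C from 16.7% to 17.3% and HGLibA from 3.17% to 5.49%. At this depth counting error is small: the exact Clopper-Pearson 95% interval of the KMT2D share at day 0 was 43.80% to 43.87%. The shares of SETD1B, KMT2C and BOD1L1 rose although the medians of their guides were below HGLibA. Shares sum to a whole, and they add up reads, whereas a median describes the typical guide. For KMT2C the median was negative before centring too (-0.10), while its share rose.

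Relative to the median HGLibA guide, the summed reads of KMT2D and SETD1A fell less than their typical guide. Against this reference, the log2 ratio of summed reads was -1.09 for KMT2D and -0.93 for SETD1A. The medians over their guides were -1.43 and -1.23. The ratio was -0.69 for KMT2C, -0.55 for BOD1L1 and -0.21 for SETD1B, with medians of -0.84, -0.64 and -0.25. The summed reads of the HGLibA guides themselves stood at 0.051 against this reference. For SETD1B the gap between sum and median was no larger than that. Sums are carried by the most abundant guides. Of the 60 most abundant guides at day 14, 29 were SETD1B, 15 KMT2D, 9 SETD1A and 4 HGLibA guides. At day 0 the counts were 12, 25, 18 and 1, and 23 guides were among the 60 on both days. In the same order, these names made up 12.4%, 40.6%, 10.5% and 3.34% of the listed guides. KMT2F_2360, against SETD1A, had the most reads at day 0 (7173) and 12694 reads at day 14, a change of 0.066. KMT2D_7787 had the most at day 14, having gone from 5467 to 14000 reads (0.60).

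Complete loss was rare. Of the 5991 guides with at least 30 day 0 reads, 18 had 0 reads at day 14. Among the tiled genes these were 8 of 2435 KMT2D, 5 of 1331 KMT2C, 1 of 628 SETD1A and 1 of 618 BOD1L1 guides. The others were 2 of 5 POLR2L and 1 of 5 POLR2A guides. Whether the tiled genes differ in this share was not tested. The 18 guides started from a median of 217 reads, against 1531 over the listed guides. Both that started from at least 1000 reads target essential genes. The deepest start among lost guides of tiled genes was 594 reads. The SETD1A guide was KMT2F_14, with 90 reads at day 0 (at least 50.7-fold lower), and the BOD1L1 guide was BOD1L1_2150, with 65 (at least 36.6-fold). The remaining KMT2C guides at 0 were KMT2C_3787, KMT2C_7278 and KMT2C_11380, with 228, 45 and 53 reads at day 0. The remaining KMT2D guides, KMT2D_6150, KMT2D_7955, KMT2D_11311, KMT2D_14150 and KMT2D_15714, had 126, 34, 119, 297 and 206. None of the 744 SETD1B or 200 HGLibA guides was at 0. Guides with under 10 reads at day 14 numbered 19, and those under 30 reads 27. Below the limit on day 0 reads, KMT2C_1751 (18 reads) and KMT2D_4154 (20 reads) were also at 0, KMT2C_1464 was at 0 on both days, and KMT2C_8628 went from 10 to 228 reads.

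Coarse stretches of guide numbers held a small part of the variance between the guides of a gene. The numbers in the guide names were cut into 10 equal stretches per gene, so position at a finer scale than a stretch is not measured by these values. For SETD1A the stretch medians ran from -1.60 (numbers 4 to 512, 75 guides) to -0.71 (numbers 3175 to 3584, 50 guides), and the stretches held 5.48% of the variance between its guides. For KMT2D they ran from -1.75 (numbers 14999 to 16656, 199 guides) to -1.24 (numbers 5009 to 6665, 265 guides) with 1.57% of the variance. KMT2C ran from -1.02 in stretch 10 to -0.66 in stretch 3, BOD1L1 from -0.88 in stretch 1 to -0.36 in stretch 3, and SETD1B from -0.32 to -0.13. The stretches held 2.18%, 2.04% and 3.14% of the variance in these genes. Some variance falls between 10 stretches by chance, more so in genes with fewer guides. That part was not measured, so the shares do not rank the genes. Relative to HGLibA, no KMT2D stretch had a median above -1 log2, which depends on this reference.

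Neighbouring guides resembled each other little. The Pearson correlation between a guide and the next by number was 0.18 for KMT2D (2431 pairs), 0.11 for KMT2C (1330 pairs), 0.11 for SETD1A (627 pairs), 0.045 for SETD1B (743 pairs) and 0.0097 for BOD1L1 (617 pairs). These pairs share libraries, gene and often part of their sequence, and no p is given. The median gap between successive numbers was 4 for SETD1A, SETD1B and KMT2D, 6 for KMT2C and 8 for BOD1L1. The median difference in change between neighbours was 0.78 log2 for SETD1A and 0.86 for KMT2D, against 0.40 for SETD1B.

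In day 7 sgEmpty RNA, the tiled genes that could be matched stood at similar levels. SETD1A measured 17.5, 17.5 and 18.1 TPM in the 3 libraries, SETD1B 16.1, 16.1 and 17.1, KMT2C (listed as MLL3) 23.5, 26.5 and 24.9, and BOD1L1 (listed as BOD1L) 14.5, 15.8 and 16.3 TPM. KMT2D has no value because its older names in the table, MLL2 and MLL4, are both shared with KMT2B; these ran from 15.7 to 21.5 TPM. SETD1A and SETD1B, whose guides differed by 0.98 log2 in median, thus had transcript levels within 2 TPM of each other. The essential genes ran from 41.4 TPM for RPA3 to 164 TPM for POLR2L, and PPP1R12C, which holds the AAVS1 site, from 29.7 to 31.3 TPM.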

How the data were processed

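Guide reads of 1 day 0 and 1 day 14 library of pooled iCas9 KPL-1 cells were analysed, grouped by sample title. The guide table, as deposited by the authors, lists raw counts of reads. The amplification and counting of guides are not given in the sources used here, and the labels repeat the RNA protocol for these samples. The row named sum, the column total, was left out. Per the submitters' processing notes, bcl2fastq 2.20.0, STAR 2.6.0c, RSEM 1.3.1 and hg19 were used, without roles. RNA levels are TPM as deposited by the authors, without their total row.

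CPM was computed over all listed guides, with a pseudocount of 1 and a minimum of 30 day 0 reads, and centred on the HGLibA median. A guide was called at 2-fold. Medians have exact 95% intervals from order statistics over guides, and shares have exact Clopper-Pearson intervals. Guides at 0 reads were bounded by a floor of 3 reads per library. Reads carry no molecular identifiers, so counting intervals cover counting error only. Named guides were, among those with at least 100 day 0 reads, the 3 lowest and 2 highest of each tiled gene, 2 and 2 of HGLibA and those of the control genes, with all guides at 0 and the most abundant. Members, lists and rules were chosen with earlier results of these data known. The 376 rows that share a name were kept, and 3 guides named for 2 positions entered no ordering. Guides of 1 target name count in the pool but are not reported here. KMT2F and KMT2G were matched as synonyms in the RefSeq table (GRCh38.p14), from which no coordinates were taken. On counts simulated with 1 shift per target, the script recovered the known shifts. Simulated guides of a target differed by counting error only, so shapes and tails were not checked. Python 3.11.15, numpy 2.4.6, pandas 2.3.3 and scipy 1.17.1 were used. Alternatives changed the pseudocount, minimum, centring and shared names.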

Additional observations from a re-analysis of the deposited data

How the results depend on the processing

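No paired analysis was possible because each day has 1 library and no result comes from a test. Pseudocounts of 0.1 and 5, no minimum or 100 day 0 reads, and leaving out rows that share a name left each median, share, quartile range and count within its interval over guides, or a count within 1.5 times. At 500 day 0 reads 9 guides were at or above 1 log2, in place of 21. Centring subtracts 1 constant from every guide, which leaves order and quartile ranges as they are by construction. Centred on all guides, the medians were -0.52 for KMT2D, -0.31 for SETD1A, 0.072 for KMT2C, 0.28 for BOD1L1 and 0.67 for SETD1B, so that the last 3 turned positive. Shares at or below -1 log2 were then 32.1%, 21.5%, 9.47%, 4.69% and 1.34%, with 66.7% for the 6 control names and 0% for HGLibA (1101 guides in all, and 644 at or above 1 log2). Without centring, the medians were -0.69, -0.49, -0.10, 0.10 and 0.49, with BOD1L1 and SETD1B turned, and the shares 38.7%, 27.4%, 12.1%, 6.47%, 2.02%, 70.0% and 0.50% (1353 and 378 guides). Centred on AAVS1 guides, an alternative chosen after seeing the data, the medians were -0.42, -0.21, 0.17, 0.38 and 0.77, with KMT2C, BOD1L1 and SETD1B turned, and the shares 28.5%, 18.6%, 8.34%, 4.05%, 1.34%, 66.7% and 0% (977 and 869 guides). Among HGLibA guides alone the Gini coefficient was 0.269 at day 0 and 0.304 at day 14. The correlations of neighbouring guides moved by at most 0.05 with ranks or at least 100 day 0 reads. At 5 guides a control gene, medians are imprecise, and 1 library per day leaves the spread between cultures unmeasured.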

Other observations

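Some rows share a name with another row, which gives a view of guides that carry the same gene and number. There were 96 such pairs for KMT2D, 28 for SETD1B, 26 for KMT2C, 25 for SETD1A and 13 for BOD1L1, and the table does not say how the rows of a pair differ. The median difference within a pair was 0.72 log2 for KMT2D, 0.61 for SETD1A, 0.46 for KMT2C, 0.63 for BOD1L1 and 0.52 for SETD1B. Between neighbours by number it was 0.86, 0.78, 0.68, 0.61 and 0.40. In 33 KMT2D pairs and 7 SETD1A pairs the members differed by at least 1 log2, with largest differences of 3.57 and 2.79 log2. Correlations within pairs were 0.17 for KMT2D, 0.18 for SETD1A, 0.28 for SETD1B, 0.38 for KMT2C and 0.056 for BOD1L1, as descriptions over guides of the same 2 libraries.

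Of the 3 guides named for 2 KMT2D positions, the most abundant had 6089 reads at day 0, the third highest of the pool, and 6278 at day 14 (-0.71 log2).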
